A study of Mus musculus with 6 samples.

Results

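The extracellular matrix genes described here are 10 in number, *Fn1*, *Tnc*, *Thbs1*, *Thbs2*, *Sparc*, *Spp1*, *Postn*, *Fbn1*, *Eln* and *Vcan*, taken by gene name from a table of 40166 mouse genes. The table holds read counts of 6 tumors grown in C57BL/6 mice, of which 3 were treated with vehicle and 3 with rigosertib (RGS). The tumors arose from YUMM3.3, a murine melanoma line with mutant BRAF that was injected under the skin. RGS is an orally given compound that the paper describes as a RAS mimetic, while it cites several reported mechanisms and a dispute about microtubules. RGS was given at 300 mg/kg by gavage on 5 days a week, control mice received H2O as vehicle on the same schedule (0 mg/kg RGS), and the samples are labelled as collected at day 17 of treatment. The labels give neither the age nor the sex of the mice. The paper's methods give an age range for its tumor-bearing mice and name both sexes, but not the sex for the sequenced tumors. All tumors came from the same cell line, and each library is labelled as a bulk tumor, which would hold tumor, stromal and immune cells. In such bulk samples, fewer cells of a type and less RNA per cell cannot be told apart.

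Matricellular proteins are secreted into the extracellular matrix, where they act on cells through integrins and other receptors rather than as structural fibers. Fibronectin and versican build the provisional matrix of wounds and tumors, and fibrillin microfibrils with an elastin core form elastic fibers. In melanoma, osteopontin, tenascin-C and SPARC are known as products of invasive tumor cells and of the stroma around them.

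Of the 10 genes, 6 were expressed at a higher and none at a lower level in the RGS tumors. *Thbs2* rose 5.15-fold and *Spp1* 4.37-fold, *Tnc* 2.26-fold and *Fn1* 2.12-fold, *Thbs1* 1.54-fold and *Sparc* 1.37-fold. *Fbn1* and *Vcan* did not pass the threshold, *Postn* was counted in 1 tumor, and *Eln* had no count in any tumor. Differences were tested by the quasi-likelihood F test of edgeR, with p adjusted by Benjamini-Hochberg over the 15355 genes whose median count was at least 5 in at least 1 group, and a gene was called at an adjusted p under 0.05. Among all tested genes, 16.3% were called higher and 16.5% lower. The 10 genes, and the related genes listed below, were chosen with earlier results of these data known. Their counts and medians are therefore set beside those of all genes as description only. The median log2 fold change was 0.85 over the 8 tested matrix genes and -0.05 over all tested genes. All 8 passed the filter in both groups, with median counts from 343 to 119179 with vehicle and from 258 to 324194 with RGS. At an unadjusted p under 0.05, edgeR gave 6 higher and 1 lower gene (*Vcan*), and with DESeq2 also 0 of the 10 were called lower. When counts were scaled by library size alone, 4 genes were called higher and 1 (*Vcan*) lower, and the calls over all genes moved from 2503 higher and 2533 lower to 1870 higher and 3152 lower.

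The libraries held between 13837932 and 32555494 counts each, and the 3 RGS libraries were all shallower than the 3 vehicle libraries. Although the samples are labelled as melanoma tumors, the melanocytic markers *Mlana*, *Tyr* and *Dct*, the leukocyte markers *Ptprc* and *Adgre1*, the fibroblast marker *Lum* and the endothelial marker *Emcn* had 0 counts in every library, and the macrophage markers *Csf1r*, *Cd163* and *Lyz2* had at most 2. By contrast, the paper found leukocytes and macrophages in YUMM3.3 tumors by flow cytometry. Whether the libraries hold whole tumor tissue or mainly cells of the injected line was not tested. The word "tumor" is used here as the label gives it. Mitochondrial transcripts took 2.13% to 3.20% of the counts with vehicle and 5.60% to 8.22% with RGS. Because of the difference in depth, depth and treatment cannot be told apart. With all libraries thinned at random to the smallest total, the same number of the 10 genes, 6, was called higher. Thinning makes the totals equal but leaves any other difference between the libraries in place, so it does not separate depth from treatment. A count of 0 allowed up to 3 counts, or 0.0856 to 0.226 CPM depending on the library (CPM is the count scaled to a library of 1000000 counts), and such floors cover counting error only.

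**Figure D1:**
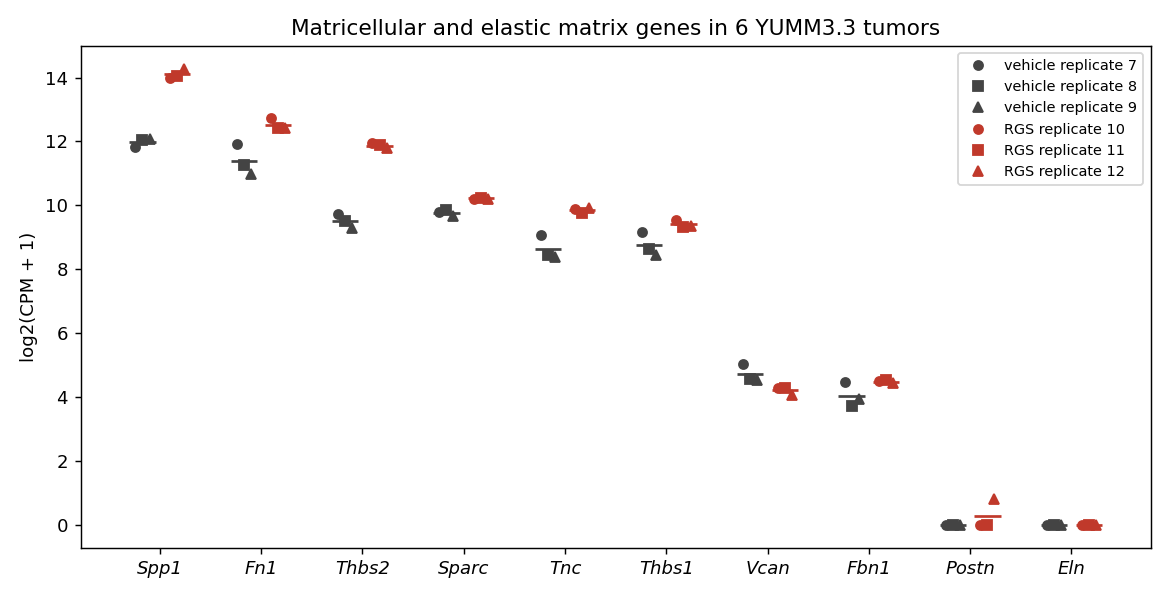
Expression of the 10 genes in each tumor, as log2(CPM + 1), with vehicle replicates 7 to 9 in grey, RGS replicates 10 to 12 in red and bars at the group means. The 3 RGS tumors sit above the 3 vehicle tumors for *Spp1*, *Fn1*, *Thbs2*, *Sparc*, *Tnc* and *Thbs1* and below them for *Vcan*, whereas the groups overlap for *Fbn1*, and *Postn* and *Eln* lie at or near 0.

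Promoter windows of 300 bases (250 before and 50 after a transcription start) were taken from RefSeq on GRCm38.p6, and 7 of the 10 genes matched. The windows of *Spp1* and *Thbs2*, the genes with the largest increases, and of *Vcan*, the only tested gene with a lower mean in RGS tumors, are shown to set the sequences side by side. Capitals mark CAGAC, a sequence bound by SMAD factors, and TATAAA, that of a TATA box, read on either strand. The windows are chr5:104434861-104435160 on the plus strand for *Spp1*, chr17:14694213-14694512 on the minus strand for *Thbs2* and chr13:89742463-89742762 on the minus strand for *Vcan*, each printed 5′ to 3′ along its gene.
Spp1: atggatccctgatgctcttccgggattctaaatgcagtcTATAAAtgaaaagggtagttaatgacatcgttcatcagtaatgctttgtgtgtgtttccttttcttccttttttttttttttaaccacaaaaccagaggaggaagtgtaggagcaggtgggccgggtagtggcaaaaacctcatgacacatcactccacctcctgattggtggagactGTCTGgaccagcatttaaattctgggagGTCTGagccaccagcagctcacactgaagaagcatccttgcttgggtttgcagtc
Thbs2: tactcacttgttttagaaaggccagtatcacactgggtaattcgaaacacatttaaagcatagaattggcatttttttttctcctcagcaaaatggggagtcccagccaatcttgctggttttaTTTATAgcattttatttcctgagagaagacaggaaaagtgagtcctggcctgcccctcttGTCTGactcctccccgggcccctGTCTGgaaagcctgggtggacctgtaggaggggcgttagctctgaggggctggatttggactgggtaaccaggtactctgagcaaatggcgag
Vcan: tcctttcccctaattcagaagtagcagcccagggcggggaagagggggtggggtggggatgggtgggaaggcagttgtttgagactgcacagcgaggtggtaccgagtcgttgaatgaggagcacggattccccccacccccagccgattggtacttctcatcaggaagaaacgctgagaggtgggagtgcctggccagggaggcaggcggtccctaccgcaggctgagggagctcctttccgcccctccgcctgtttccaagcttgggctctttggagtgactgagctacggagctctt

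The windows shown for *Spp1* and *Thbs2* each held the SMAD letters at 2 places, beginning 33 and 5 bases before the start in *Spp1* and 66 and 43 bases before it in *Thbs2*. Both also held the TATA letters once, 211 and 126 bases before the start. *Vcan* held neither, and nor did *Fbn1*, whose mean was higher in RGS tumors. A second window of *Spp1*, at another start, held the SMAD letters once, 41 bases before that start, and no TATA letters. *Sparc*, *Tnc* and *Postn* also held the SMAD letters, and *Tnc* and *Postn* the TATA letters, in at least 1 window. The start site lay 1555 bases inside the gene model for *Fbn1*, 3103 for *Sparc* and 1074 for the second *Spp1* window. In the windows shown it lay just before the gene model, so the windows are not alike in position. Over 32851 promoter windows of this length, 49.6% held the SMAD letters and 13.6% the TATA letters on either strand. The letters of AP-1 (TGAGTCA, 5.20% of all windows) and TEAD (GGAATG, 14.7%) were in none of the 10 windows of the 7 matched genes. *Fn1*, *Thbs1* and *Eln* had no matched window. These matches describe letters only, not binding sites.

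*Spp1* encodes osteopontin, a secreted phosphoglycoprotein that binds integrins and CD44. It lies on chromosome 5 of GRCm38 from 104435118 to 104441050 (ENSMUSG00000029304.14). Its expression was 3640.1, 4245 and 4274 CPM in the vehicle tumors (replicates 7, 8 and 9) and 16364, 16994 and 19823 CPM in the RGS tumors (replicates 10, 11 and 12). Every RGS tumor was far above every vehicle tumor, and the spread within each group was small beside the gap. The means were 4053 ± 358 and 17727 ± 1842 CPM (SD, n = 3 each), or 2.13 apart on the log2 scale (standard error 0.15; adjusted p = 6.38e-09, edgeR). The gain of 13674 CPM ranked 1 among the 15332 tested genes outside the mitochondrial genome, with TMM factors and by library size alone. The next ranks belonged to *Fn1* and *Thbs2*, with gains of 3112 and 3023 CPM (ranks 2 and 3 with TMM factors, 3 and 2 by library size alone).

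The thrombospondins *Thbs1* and *Thbs2* encode related glycoproteins that bind CD47 and CD36 and restrain the growth of blood vessels. *Thbs2* (chromosome 17, 14665500 to 14694235) was at 841, 723 and 623 CPM with vehicle and at 3938, 3776 and 3541 CPM with RGS. The lowest RGS tumor was above the highest vehicle tumor by several fold. On the log2 scale it rose by 2.36 (standard error 0.16; adjusted p = 2.87e-09, edgeR), with means of 729 ± 109 and 3752 ± 200.1 CPM (SD, n = 3 each). Among the 2126 tested genes with a mean of at least 100 CPM, its log2 fold change ranked 24 and that of *Spp1* ranked 33.

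*Thbs1* (chromosome 2, 118111876 to 118127133), which encodes an activator of latent TGF-beta, was at 567, 398 and 349.6 CPM with vehicle and at 744, 639 and 649 CPM with RGS. The groups did not overlap, but the highest vehicle tumor, replicate 7, was close to the RGS tumors. It rose by 0.63 on the log2 scale (standard error 0.18; adjusted p = 0.00997, edgeR). This call was lost when RGS replicate 10 was left out (log2 fold change 0.56, adjusted p = 0.0535 from edgeR) and with library size alone (0.48, adjusted p = 0.0502).

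*Tnc* (chromosome 4, 63959785 to 64047015) encodes tenascin-C, a large glycoprotein that loosens cell adhesion and is produced again in wounds and tumors. It was measured at 540.0, 351 and 332 CPM with vehicle and 941, 861 and 961 CPM with RGS. All RGS tumors were above all vehicle tumors, of which replicate 7 was the highest. The means of 408 ± 115 and 921 ± 53.0 CPM (SD, n = 3 each) gave a log2 fold change of 1.18 (standard error 0.18, adjusted p = 5.75e-05 from edgeR).

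*Fn1* (chromosome 1, 71585520 to 71653200) encodes fibronectin, the adhesive glycoprotein that cells assemble into fibrils through integrins. It was at 3909, 2439 and 2014 CPM with vehicle and 6762, 5474 and 5461 CPM with RGS. The groups did not overlap, and vehicle replicate 7 again stood above the other vehicle tumors. It rose by 1.08 on the log2 scale (standard error 0.20; adjusted p = 3.80e-04, edgeR), from 2787 ± 995 to 5899 ± 747 CPM (SD, n = 3 each). Without vehicle replicate 7 it was 1.41, and over all 16 alternative fits it stayed between 0.90 and 1.41.

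*Sparc* (chromosome 11, 55394500 to 55423183) encodes a collagen- and calcium-binding protein that weakens cell attachment, also called osteonectin. Its expression was 882, 915 and 815 CPM with vehicle and 1186, 1209 and 1179 CPM with RGS. The values within each group were close together, and the groups were separated by a small step. The increase was the smallest of the 6, with a log2 fold change of 0.45 (standard error 0.14, adjusted p = 0.0197 from edgeR). It did not pass the threshold without vehicle replicate 9, RGS replicate 11 or RGS replicate 12, with adjusted p of 0.0509, 0.0863 and 0.0566 from edgeR, nor with library size alone (adjusted p = 0.105).

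*Vcan* (chromosome 13, 89655312 to 89742509) encodes versican, a large proteoglycan that binds hyaluronan. It was at 31.6, 22.8 and 22.4 CPM with vehicle and at 18.6, 18.3 and 15.8 CPM with RGS. All RGS tumors lay below the lowest vehicle tumor, although the log2 fold change of -0.54 (95% confidence interval -1.03 to -0.06, unadjusted) had an adjusted p of 0.0780 from edgeR. Without vehicle replicate 7, the highest, it was -0.36. Groups did not overlap for 7 of the 8 tested matrix genes and for 45.8% of all tested genes.

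*Fbn1* (chromosome 2, 125300594 to 125507993) encodes fibrillin-1, the main protein of microfibrils. Its values were 21.2, 12.2 and 14.4 CPM with vehicle and 21.5, 22.0 and 20.7 CPM with RGS. Vehicle replicate 7 lay among the RGS tumors, while the other vehicle tumors were lower. The log2 fold change was 0.42 (95% confidence interval -0.10 to 0.95, adjusted p = 0.211 from edgeR). Without vehicle replicate 7 it was 0.68 (adjusted p = 0.0512 from edgeR). *Fbn1* was called higher only by limma voom with quality weights (log2 fold change 0.70, adjusted p = 0.0120).

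*Postn*, which encodes periostin (chromosome 3, 54361109 to 54391037), had 12 counts in RGS replicate 12 and 0 in the other 5 tumors. *Eln*, which encodes elastin (chromosome 5, 134702593 to 134747323), had 0 counts in all 6 tumors. Both were left out of the test by the filter on low counts, and at this depth an expression below the floor of each library was not detectable. Other annotated genes overlap 7 of the 10 genes, and the most counted of them had at most 240 counts in any tumor, a gene on the strand of *Spp1*.

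**Figure D2:**
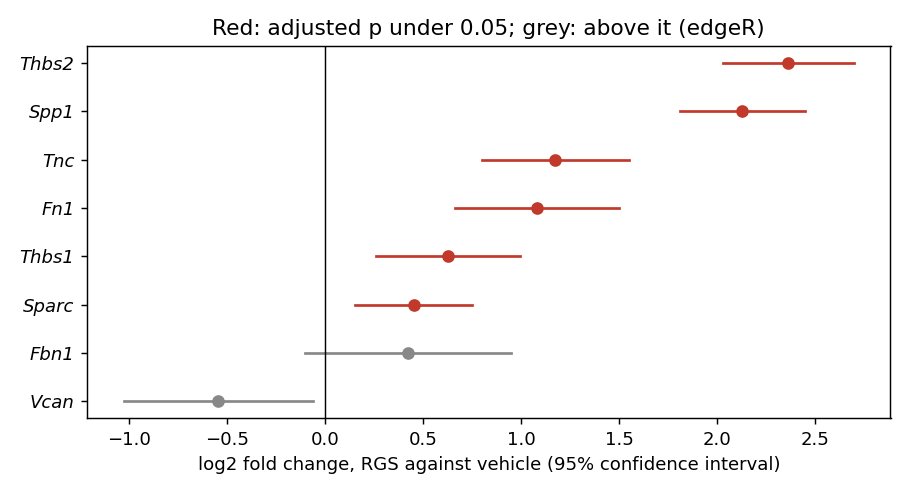
Log2 fold change of RGS against vehicle for the 8 tested genes, with unadjusted 95% confidence intervals from edgeR, red for an adjusted p under 0.05 and grey for the others. *Thbs2* and *Spp1* lie above 2 on the log2 scale, and the interval of *Fbn1* crosses 0.

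To compare levels between genes, CPM was divided by the gene length in the deposited table. The order of genes depends on these lengths as well as on the spread between tumors, and other lengths were not tried. Per kilobase, *Spp1* was the highest of the 10 genes in all 6 tumors, at 2459 ± 217 CPM per kilobase with vehicle and 10757 ± 1118 with RGS (SD, n = 3 each). This placed it at rank 6 of the 15355 tested genes with vehicle and at rank 3 with RGS. With vehicle, *Fn1* (239 ± 85.1 CPM per kilobase) and *Sparc* (229.8 ± 13.4) came next and could not be ordered, since *Fn1* was above *Sparc* in 1 of 3 tumors. *Thbs2* (104 ± 15.6), *Thbs1* (72.2 ± 18.8) and *Tnc* (52.5 ± 14.8) followed in this order within each of the 3 vehicle tumors, although the ranges of neighbors overlapped.

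In RGS tumors *Thbs2*, at 536 ± 28.6 CPM per kilobase, had reached the level of *Fn1*, at 505 ± 64.0 CPM per kilobase. It was above *Fn1* in 2 of 3 tumors, so the order of these levels was not settled. *Sparc* (315 ± 4.21 CPM per kilobase) was below both in every RGS tumor, and *Tnc* (119 ± 6.81) and *Thbs1* (111 ± 9.55) overlapped. The levels of *Vcan* and *Fbn1* were far lower, at 1.77 ± 0.359 and 1.31 ± 0.384 CPM per kilobase with vehicle. With RGS their order was the opposite in all 3 tumors, at 1.21 ± 0.107 and 1.76 ± 0.0521 CPM per kilobase.

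**Figure D3:**
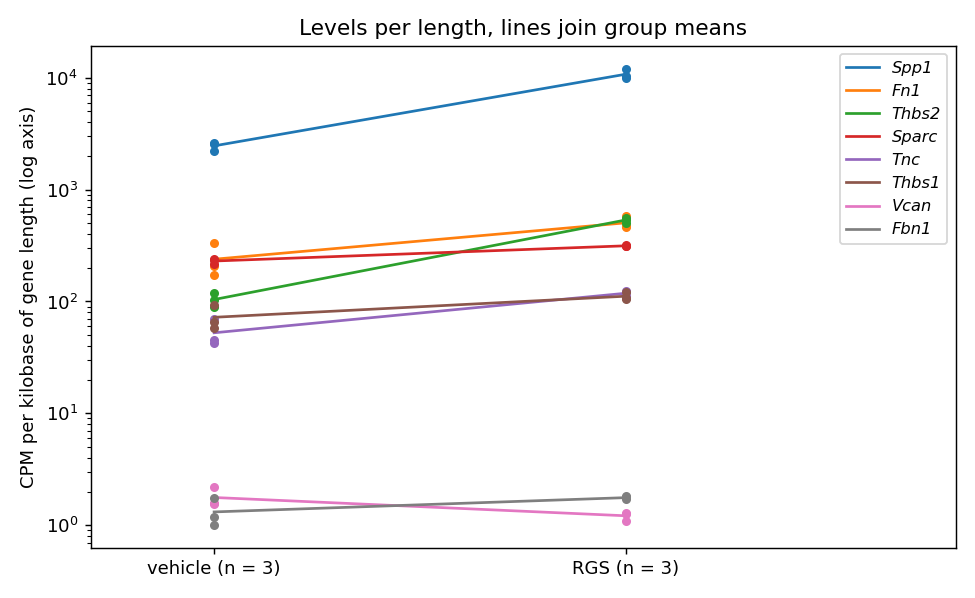
CPM per kilobase of gene length on a log axis, with points for the 3 tumors of each group and lines joining the group means of the 8 tested genes. *Spp1* is highest in both groups, *Thbs2* moves from below *Fn1* and *Sparc* to the level of *Fn1*, and the lines of *Vcan* and *Fbn1* cross.

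Ratios between 2 genes within a tumor do not depend on how libraries are scaled. The log2 ratio of *Thbs1* to *Thbs2* per length was -0.36, -0.65 and -0.63 in the vehicle tumors and -2.20, -2.36 and -2.24 in the RGS tumors. *Thbs1* was thus at 0.684 of the level of *Thbs2* with vehicle and at 0.208 with RGS. The log2 ratio of *Spp1* to *Sparc* was 3.25, 3.42 and 3.59 with vehicle and 4.99, 5.01 and 5.27 with RGS. For both pairs the groups did not overlap, with differences of -1.72 and 1.67 (two-sided exact permutation test, p = 0.1, the smallest that 3 tumors against 3 allow, adjusted p = 0.15 over the 3 pairs computed). *Fn1* to *Tnc* gave log2 ratios of 2.27, 2.21 and 2.01 with vehicle and 2.26, 2.08 and 1.92 with RGS, which overlapped (difference -0.08, exact permutation p = 0.6). The fourth pair set out for comparison, *Fbn1* to *Eln*, gave no ratio because *Eln* had no counts.

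**Figure D4:**
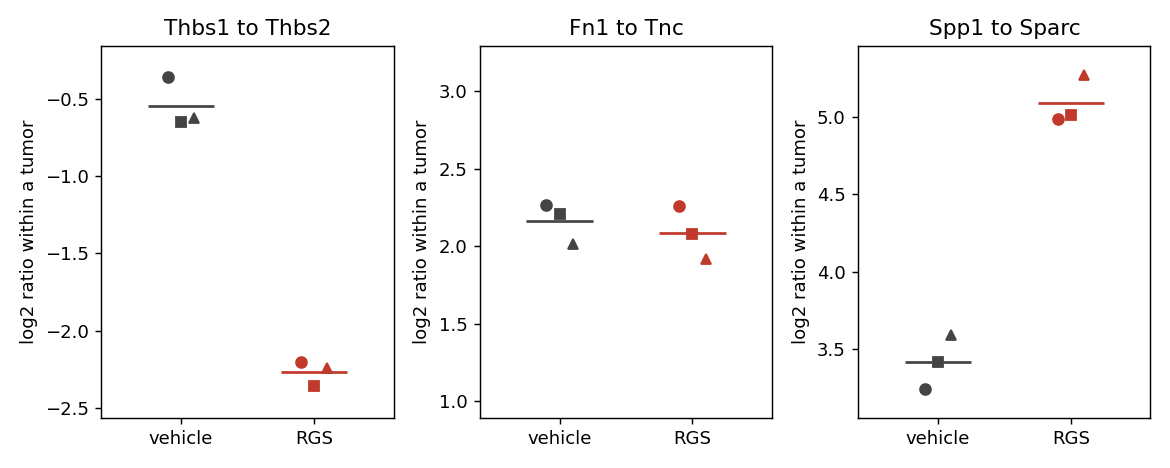
Log2 ratios of length-scaled counts within each tumor for 3 pairs of genes, with bars at the group means and panels of equal height in log2 units. *Thbs1* to *Thbs2* is lower and *Spp1* to *Sparc* higher in all RGS tumors, and *Fn1* to *Tnc* overlaps between the groups.

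Together the 10 genes took 1.12%, 0.959% and 0.862% of the counts of the vehicle libraries and 2.93%, 2.78% and 2.91% of those of the RGS libraries. Without *Spp1* and *Fn1* the shares were 0.220% to 0.310% with vehicle and 0.586% to 0.670% with RGS. The vehicle tumors varied more than the RGS tumors for 7 of the 8 tested genes, *Spp1* being the exception. The coefficient of variation was 35.7% with vehicle and 12.7% with RGS for *Fn1*, 28.2% and 5.75% for *Tnc*, and 29.2% and 2.95% for *Fbn1*, beside medians of 21.5% and 21.6% over all tested genes. Vehicle replicate 7 had the highest value of its group for *Fn1*, *Tnc*, *Thbs1*, *Thbs2*, *Fbn1* and *Vcan*, and the lowest for *Spp1*. It was also the deepest library, and the part of depth in this spread was not tested.

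Relatives of the matricellular genes were called in both directions, as were genes in general (16.3% of all tested genes higher and 16.5% lower). Of 24 listed genes, 16 were tested, 6 of which were higher and 3 lower (median log2 fold change 0.70, against -0.05 over all tested genes). *Smoc2*, which encodes a calcium-binding relative of SPARC, rose from 69.8 ± 6.73 to 776 ± 96.9 CPM (SD, n = 3 each), a log2 fold change of 3.47 (adjusted p = 3.46e-11, edgeR). *Dmp1*, of the same gene family as osteopontin, was at 5, 6 and 1 counts with vehicle and 137, 57 and 56 counts with RGS (log2 fold change 5.07, standard error 0.84). *Tgfbi*, which encodes a TGF-beta-induced adhesion protein, rose from 23.3 ± 2.63 to 53.7 ± 6.82 CPM. *Tnxb*, which encodes tenascin-X, had a log2 fold change of 1.69 (adjusted p = 0.0357 from edgeR) and did not pass the threshold in 6 of 16 alternative fits.

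The CCN genes, which encode cysteine-rich matricellular proteins, did not share a direction. *Cyr61* (also called Ccn1) fell from 609 ± 12.8 to 260 ± 35.7 CPM and *Nov* (Ccn3) from 16.5 ± 0.912 to 3.73 ± 1.34 CPM (SD, n = 3 each), with log2 fold changes of -1.23 and -2.15. *Ctgf* (Ccn2) rose from 46.0 ± 2.96 to 97.5 ± 16.1 CPM (log2 fold change 1.08, adjusted p = 1.03e-04 from edgeR). *Ctgf* and *Sparcl1*, the other genes called higher, were named after their values were seen. *Sparcl1*, another SPARC relative, had 2, 0 and 0 counts with vehicle and 9, 13 and 15 counts with RGS, and its call was lost in 8 of 15 alternative fits. *Fstl1*, which encodes a glycoprotein with a SPARC-like domain, was called lower (log2 fold change -0.51) but not when vehicle replicate 8 or RGS replicate 11 was left out.

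Among 17 genes of elastic fibers and microfibrils, 13 were tested, with 3 higher and 3 lower (median log2 fold change 0.05). The shares over all tested genes were 16.3% higher and 16.5% lower. *Emilin1*, which encodes a glycoprotein at the surface of elastic fibers, rose from 44.5 ± 12.4 to 236 ± 22.5 CPM, and *Ltbp3*, which encodes a binding protein of latent TGF-beta, from 178 ± 42.9 to 448 ± 17.7 CPM (SD, n = 3 each). Their log2 fold changes were 2.40 and 1.33. *Efemp2*, a fibulin gene, was called higher (log2 fold change 0.68), except without RGS replicate 12. *Fbln5* and *Fbln2*, which also encode fibulins, fell by 1.47 and 1.01 on the log2 scale, and *Ltbp2* by 1.09. *Ltbp2* did not pass the threshold without vehicle replicate 7, vehicle replicate 8 or RGS replicate 10, and without vehicle replicate 7 the number of genes called higher was 6 instead of 3.

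None of 10 genes of the versican family, its link proteins and the hyaluronan synthases was called. Of these, 5 were tested, with 0 past an unadjusted p under 0.05 in edgeR, and DESeq2 also called 0. Among all tested genes, edgeR called 16.3% higher and 16.5% lower. Standard errors of the log2 fold changes of these 5 genes ran from 0.37 to 1.42. The lack of calls therefore does not show that their levels were unchanged. The most abundant, *Has1*, was named after its values were seen and averaged 8.35 and 6.63 CPM in the vehicle and RGS tumors.

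Receptors of these matrix proteins were listed as 15 genes. Of 13 tested, 5 were higher and 3 lower (median log2 fold change 0.36), beside 16.3% higher and 16.5% lower over all tested genes. The integrin subunits *Itgb3* and *Itga5*, which form receptors for osteopontin and fibronectin with their partners, rose from 6.12 ± 0.748 to 34.6 ± 3.08 CPM and from 222 ± 42.0 to 556 ± 11.4 CPM (SD, n = 3 each). Their log2 fold changes were 2.50 and 1.33, with adjusted p of 2.84e-07 and 4.94e-06 from edgeR. The partner subunits *Itgav* and *Itgb1*, named after their values were seen, showed log2 fold changes of 0.42 and 0.36 (adjusted p of 0.0487 and 0.0608 from edgeR), and the call of *Itgav* was lost in 9 of 16 alternative fits. *Cd47*, a thrombospondin receptor, had a log2 fold change of 0.47 (adjusted p = 0.0226 from edgeR), lost in 5 of 16 alternative fits. *Cd36*, another receptor of thrombospondins in the list, had no counts in any tumor.

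*Stab1*, which encodes a scavenger receptor that takes up SPARC, rose from 2.13 ± 1.08 to 25.4 ± 7.14 CPM (SD, n = 3 each), or by 3.55 on the log2 scale. It overlaps *Nt5dc2* on the opposite strand, which had 1472 to 3746 counts per tumor beside 33 to 504 for *Stab1*, so its count is uncertain if strand was ignored. *Sdc4*, which encodes a heparan sulfate co-receptor for fibronectin, fell from 237 ± 19.3 to 142 ± 7.45 CPM, and *Itga4* from 12.6 ± 2.48 to 4.71 ± 2.68 CPM. *Itgb8* was called lower (log2 fold change -2.19, adjusted p = 0.0490 from edgeR), with 2, 4 and 52 counts in the RGS tumors, and lost its call in 8 of 16 alternative fits. *Cd44*, the hyaluronan receptor that also binds osteopontin, was at 729.9 ± 106 and 654 ± 42.3 CPM with overlapping groups (adjusted p = 0.463 from edgeR). Without vehicle replicate 8, RGS replicate 10, RGS replicate 11 or RGS replicate 12, 3 receptor genes were called higher instead of 5.

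**Figure D5:**
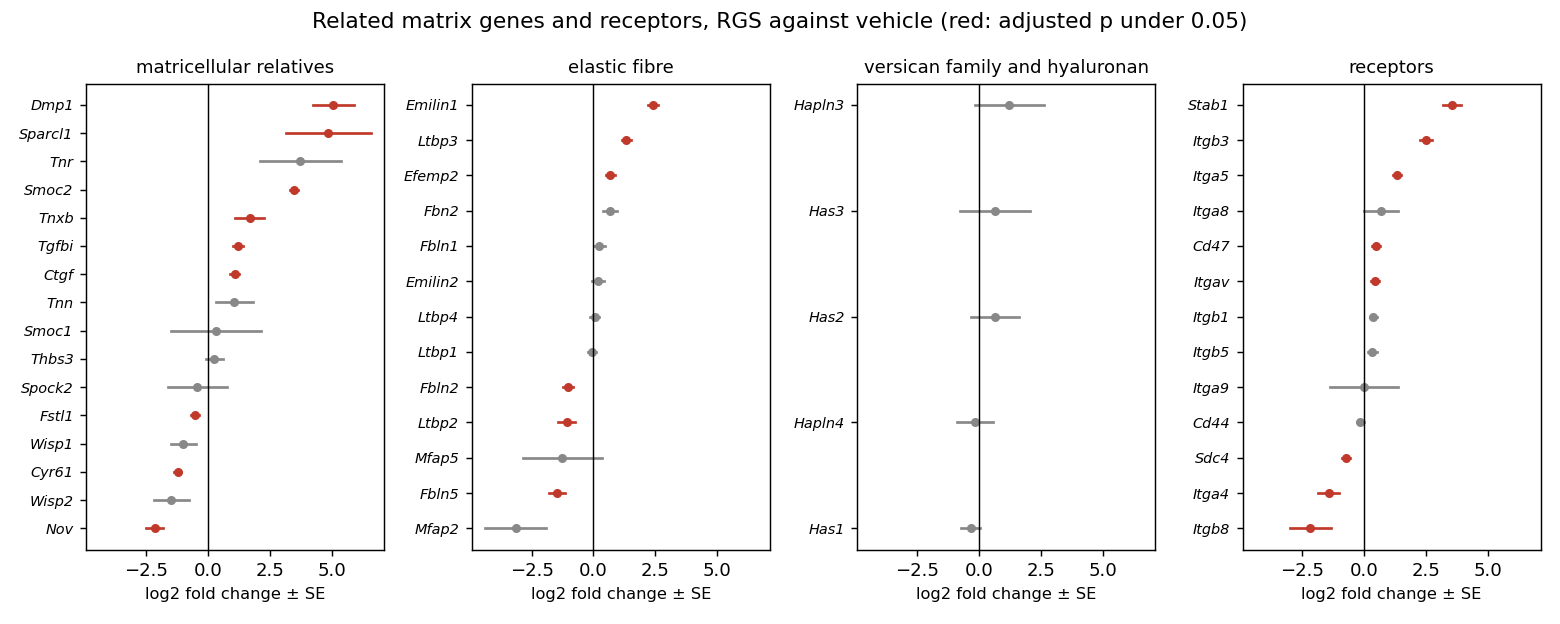
Log2 fold change with standard error (edgeR) of the tested genes in the 4 lists of related genes, red for an adjusted p under 0.05 and grey for the others. Red points lie on both sides of 0 for the relatives of matricellular genes, the elastic fiber genes and the receptors, and no gene of the versican and hyaluronan list is red.

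Markers of the cells that a melanoma could hold were read beside these results. Besides the melanocytic markers at 0, *Tyrp1* and *Sox10* were counted in RGS replicate 11 alone, and *Pmel* and *Mitf* had 0 to 25 and 74 to 261 counts. Of 8 macrophage markers, 5 had at most 3 counts in every tumor, *Ptprc* and *Adgre1* had none, and *Mrc1* and *C1qa* had at most 7 and 4. Only *Cd68*, a lysosomal gene that other cells also express, was tested, with means of 62.5 and 74.0 CPM (adjusted p = 0.293 from edgeR).

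Fibroblast markers summed to 397 to 584 CPM with vehicle and 290.2 to 319.6 CPM with RGS. Of 7 tested, *Col1a2*, *Pdgfra* and *Col3a1* were lower (log2 fold changes -0.73, -0.70 and -0.90) and *Dcn* was higher, and *Lum* had no counts. The summed endothelial markers were at 8.82 to 14.1 CPM with vehicle and 23.5 to 32.0 CPM with RGS, with *Egfl7* and *Cdh5* called higher of 5 tested, *Vwf* not called and *Emcn* at 0. *Egfl7* overlaps *Agpat2*, which had 590 to 1412 counts per tumor. Pericyte and smooth muscle markers summed to 176 to 251 CPM with vehicle and 445 to 505 CPM with RGS, where *Rgs5* rose from 1.30 ± 0.164 to 401 ± 29.5 CPM while *Acta2*, *Cspg4* and *Pdgfrb* were lower and *Des* higher. Keratinocyte markers summed to at most 1.72 CPM with vehicle and to at least 6.72 CPM with RGS, where most of the sum was *Ivl*. *Krt10* was not called, *Krt5* and *Krt14* had no more than 2 counts, and *Krt1* and *Trp63* had 0. The part of these shifts in the results on the matrix genes was not tested.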

How the data were processed

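Tumors were kept in RNAlater and sequenced as paired-end reads. The deposited table gives unnormalized counts of reads for each gene and tumor, made by the authors. Per the labels, reads were processed with cutadapt 1.18, FastQC 0.11.7, STAR 2.7.1a and featureCounts 1.6.4 on mm10. The strand setting and the handling of reads that match several genes are not given in the sources used here. Of the gene identifiers, 38927 are in GENCODE M21 (GRCm38), all with the same start and end.

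Counts were analysed with edgeR 4.0.16 in R 4.3.3 (filter: median of 5 counts or above in either group, TMM factors, quasi-likelihood F test, Benjamini-Hochberg adjustment across all 15355 genes tested). The study's methods name DESeq2, which was run as an alternative (version 1.42.0). Standard errors were obtained from the fold change and F. CPM uses the TMM-scaled library of all counts, and lengths are those of the deposited table. Other alternatives were RLE and upper-quartile factors, library size alone, no filter, filterByExpr, limma 3.58.1 voom with quality weights, robust dispersions, thinning, mitochondrial genes left out, each tumor left out, and other thresholds. The procedure was also run on simulated data with 200 genes changed, and the outcome of that run is not reported here.

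The members and lists were chosen with earlier results of these data known. All 10 members are named. From each of the 4 related lists, up to 4 genes in each direction are named, by size of change among genes called, not overlapping between groups and with a mean of at least 1 CPM. From each marker list, up to 3 genes with the highest mean are named. Other marker genes, *Ctgf*, *Sparcl1*, *Itgav*, *Itgb1*, *Cd36*, *Cd44* and *Has1* were added once their values were known. The labels do not say that tumors came from separate mice, so p-values measure the spread between these tumors. No pair of libraries in a group agreed within counting noise (chi-square at least 19.6 per degree of freedom), so none was treated as a library deposited more than once. This does not show that the tumors are independent. No protein sequences were used here. Not every overlap between annotated genes is reported here.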

Additional observations from a re-analysis of the deposited data

How the results depend on the processing

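Each of the 8 tested members kept its direction in all 16 alternative fits, and *Fn1*, *Tnc*, *Thbs2* and *Spp1* passed the threshold in every one. Library size alone moved the median log2 fold change of all genes from -0.05 to -0.19. Under it *Thbs1* (0.48) and *Sparc* (0.31) lost their calls, *Vcan* (-0.69) was called lower, so that 1 member was lower, and 3 receptor genes were higher. Relative to the shifted median, *Vcan* was at about the same distance as with TMM factors. *Fbn1* was called with voom (0.70), and without vehicle replicate 7 it was 0.68. With each tumor left out, *Thbs1* ranged from 0.49 to 0.86, *Sparc* from 0.41 to 0.51, elastic fiber genes called higher from 2 to 6, and receptors called higher from 3 to 7. The *Fn1* to *Tnc* difference ranged from -0.16 to 0.0066 and changed sign without RGS replicate 12. At an adjusted p under 0.01, 1607 genes were higher and 1562 lower, and with a change of at least 1 on the log2 scale in either direction there were 1168 and 1450. The cause of these changes was not tested. The other calls that changed were of single related genes. No paired analysis was possible because the groups share no replicate number.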
